A study of Rattus norvegicus with 74 samples.

Results

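The miR-15, miR-16, miR-195 and miR-497 family was followed in whole kidney of F344 (Fischer 344) rats of both sexes at 8 ages, from suckling animals of 2 weeks to old animals of 104 weeks. Members were all miRNAs on the array with the name rno-miR-15b, rno-miR-16, rno-miR-195 or rno-miR-497, on either arm of the hairpin, that were detected on at least 1 array. This gave 5 of the 311 expressed miRNAs, out of 677 on the array. The 5p arms rno-miR-15b-5p, rno-miR-16-5p, rno-miR-195-5p and rno-miR-497-5p were detected on all 74 arrays, and the species prefix is left out from here on. The fifth member, miR-15b-3p, was detected on 1 array of a 2-week female with a total gene signal of 1.66, and after scaling it lay at the floor of the measurement on all arrays, so that it has no level or change below. The 3p arms of miR-16, miR-195 and miR-497 were also on the array and were detected on none.

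All animals were untreated F344 rats, an inbred strain widely used in toxicology, and each array held the RNA of 1 independent animal. There were 4 females each at 2, 5, 8 and 21 weeks, 5 females each at 6, 15, 78 and 104 weeks, 4 males each at 8 and 104 weeks, and 5 males at each of the other ages. The RNA came from ground whole kidney, and females were not matched for stage of the oestrous cycle. Expression is given as normalized intensity, the summed background-subtracted signal of a miRNA divided by the 75th percentile of the expressed miRNAs on the same array, and differences are given on the log2 scale, with the standard error (SE) and limma's p-value adjusted by Benjamini-Hochberg over all 311 expressed miRNAs. A miRNA was called different at an adjusted p under 0.05 together with a fold change of at least 1.5.

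Between 190 and 264 miRNAs were detected per array, and the 75th percentile of signal ranged from 81.2 to 283. All 7 kidney tubule miRNAs examined, miR-192-5p and the miR-200 family among them, were detected on all arrays, and miR-124-3p of neurons on none. Ages of 2 to 8 weeks and ages of 15 to 104 weeks had been hybridised on separate slides, with the exception of 1 array (15-week female, replicate 5) that sat among the younger ages, and both sexes of each age were spread over the same slides. A difference between 21 and 2 weeks therefore cannot be told apart from a difference between these slides, whereas 8 and 2 weeks, 104 and 21 weeks, and the sexes at 1 age shared slides.

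A miRNA guides a silencing complex to messenger RNAs, mostly by pairing of its seed, bases 2 to 8 from the 5′ end, with sites in their 3′ untranslated regions. The miR-15/16 family is known as a brake on the cell cycle: its established targets include the cyclins D1 and E1, CDK6, the checkpoint kinases CHEK1 and WEE1, and the survival factor BCL2, and its loss in B cells is a cause of chronic lymphocytic leukaemia. In the rodent heart, members of the family rise after birth as cardiomyocytes stop dividing. The kidney likewise grows by cell division in early postnatal life and adds few cells in the adult.

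The mature sequences are shown because the family is defined by them and because closely similar miRNAs can bind each other's probes on an array. They are taken from RefSeq on the rat build GRCr8, in which all 5 members were found. Capitals mark the seed, in RNA letters from the 5′ end.
miR-15b-5p: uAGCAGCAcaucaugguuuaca
miR-16-5p: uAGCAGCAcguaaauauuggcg
miR-195-5p: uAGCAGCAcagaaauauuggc
miR-497-5p: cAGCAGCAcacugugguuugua
miR-322-5p: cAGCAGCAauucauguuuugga
miR-503-5p: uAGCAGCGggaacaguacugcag

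The first 4 have the seed AGCAGCA in common. Of 693 mature rat miRNAs in the table, 5 carry it, the fifth being miR-322-5p, the rat name of the relative called miR-424 in human. Its neighbour miR-503-5p has the same bases 2 to 7, as 6 miRNAs do in all, and ends its seed in G. Beyond the seed the members fall into different pairs from those of their genes. miR-16-5p and miR-195-5p are identical at 19 of 21 positions and have the 10-base stretch aaauauuggc in common, whereas miR-15b-5p and miR-497-5p are identical at 16 of 22 positions, and miR-16-5p and miR-497-5p at 11 of 22.

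The genes lie in 2-gene clusters. Mir15b and Mir16 are on chromosome 2, with mature miR-15b-5p at chr2:155555197-155555218 and miR-16-5p at chr2:155555343-155555364, both on the plus strand. Their hairpins are 51 bases apart within Smc4 (chr2:155550262-155578695), which encodes a condensin subunit needed for chromosome compaction in mitosis. Mir497 and Mir195 are on chromosome 10, with miR-497-5p at chr10:55450172-55450193 and miR-195-5p at chr10:55450509-55450529, also on the plus strand. Their hairpins are 255 bases apart, overlap no other annotated gene, and the nearest protein-coding gene, C10h17orf49, starts 67 bases beyond Mir195. Mir322 and Mir503 are 220 bases apart on the minus strand of chromosome X, within the long non-coding RNA gene LOC102550366. Other mammals carry a further copy of miR-16 beside miR-15a, which was not analysed here.

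Within the family, miR-15b-5p fell during growth in both sexes, miR-195-5p and miR-497-5p rose in males, and miR-16-5p did not pass the threshold in either sex. Tested over all 8 ages, 1 of 5 members (miR-15b-5p) was called with age in females, where 36.7% of the 311 expressed miRNAs were called, and 3 of 5 (miR-15b-5p, miR-195-5p and miR-497-5p) in males, where 45.3% were called. With 5 members, neither count stands clear of the share among kidney miRNAs in general. In whole kidney, a changed number of cells of a type and a changed amount of RNA per cell cannot be told apart, for these and all later values.

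**Figure D1:**
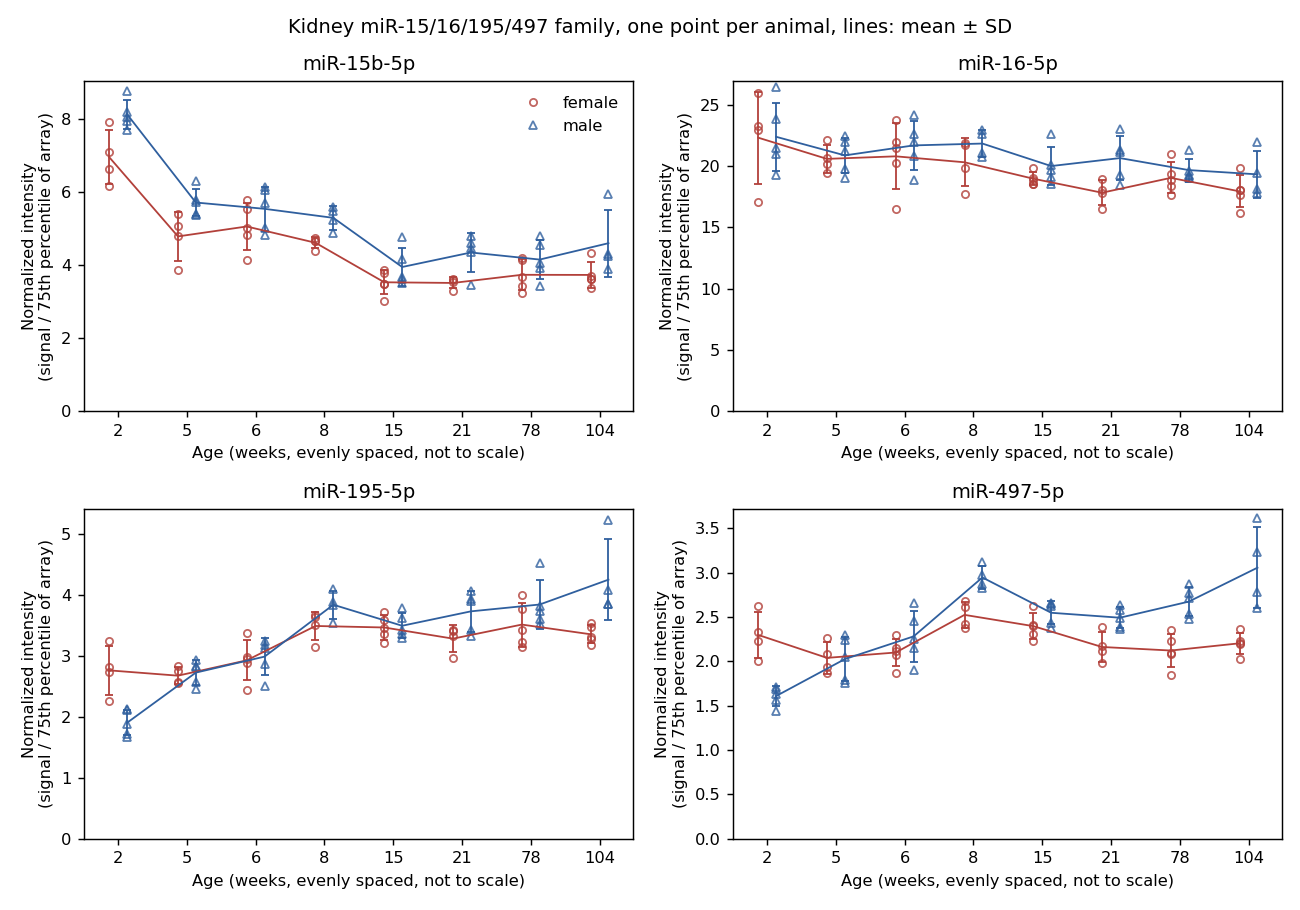
Normalized intensity (signal divided by the 75th percentile of the array) of miR-15b-5p, miR-16-5p, miR-195-5p and miR-497-5p against age in weeks (evenly spaced), 1 open symbol per animal, with lines through group means and bars of 1 SD, for females (circles) and males (triangles), 4 or 5 animals each. miR-15b-5p starts at means of 6.96 (females) and 8.13 (males) at 2 weeks and lies at 3.51 and 4.35 at 21 weeks, whereas miR-195-5p and miR-497-5p of 2-week males lie under those of all other groups.

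miR-15b-5p, encoded beside miR-16 within Smc4, was highest at 2 weeks in both sexes. In 2-week females its normalized intensity was 6.18, 6.64, 7.09 and 7.93, and in 8-week females it was 4.40, 4.66, 4.66 and 4.74. In 21-week females it was 3.29, 3.53, 3.60 and 3.63. The groups did not overlap, and each older group lay entirely below the younger one.

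In 2-week males miR-15b-5p was 7.69, 7.95, 8.07, 8.20 and 8.76, in 8-week males 4.87, 5.23, 5.48 and 5.60, and in 21-week males 3.46, 4.37, 4.47, 4.62 and 4.81. Again the 3 groups did not overlap. Group means came down between 2 and 5 weeks and between 8 and 15 weeks in both sexes. At 6 weeks they were 5.06 ± 0.639 (SD, n = 5) in females, above the 5-week mean, and 5.54 ± 0.598 (SD, n = 5) in males, below it. The 5-week females stood at 4.79 ± 0.668 (SD, n = 4) and the 5-week males at 5.72 ± 0.378 (SD, n = 5), the 8-week groups at 4.61 ± 0.148 (SD, n = 4) and 5.29 ± 0.320 (SD, n = 4), and the 15-week females were at 3.53 ± 0.330 (SD, n = 5) and the 15-week males at 3.95 ± 0.520 (SD, n = 5). From then to 104 weeks the female means stayed between 3.51 and 3.73 and the male means between 3.95 and 4.60.

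Between 2 and 8 weeks, on shared slides, miR-15b-5p fell by 0.59 on the log2 scale in females (SE 0.11, adjusted p = 1.19e-05) and by 0.62 in males (SE 0.10, 1.54-fold, adjusted p = 9.79e-07). In females this lies at the fold threshold: the change was under 1.5-fold, at an adjusted p still under 0.05, with slide as a fixed block (-0.57) or a random block (-0.58), with the 75th percentile taken over the whole array (-0.45), and without the 2-week female of replicate 4 (-0.52), the 2-week female of replicate 6 (-0.58) or the 8-week female of replicate 1 (-0.57). In males the same held without the 8-week male of replicate 3 (-0.58), with the 75th percentile over the whole array (-0.53) and with normexp background correction (-0.58), which left the female change at -0.49 (adjusted p = 0.161). Of the 5 members, miR-15b-5p alone was called lower at 8 than at 2 weeks in either sex, where 12.5% of all expressed miRNAs were called lower in females and 14.8% in males.

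Between 2 and 21 weeks, miR-15b-5p fell by 0.98 in females (SE 0.11, 1.97-fold, adjusted p = 2.04e-11) and by 0.91 in males (SE 0.10, 1.88-fold, adjusted p = 3.56e-12). Here 13.8% of expressed miRNAs were called lower in females and 17% in males, and miR-15b-5p took place 28 from the lowest of 311 in females and 36 in males. The single 15-week female hybridised among the younger ages had a level of 3.78, within the 3.03 to 3.87 of the other 15-week females and below the 4.40 to 4.74 of the 8-week females. For miR-16-5p the same array, at 19.9, lay above the 18.5 to 19.0 of the other 15-week females. For miR-195-5p (3.35) and miR-497-5p (2.40) it lay within the range of the other 15-week females and within that of the 8-week females. A difference between slides was not tested with this 1 array. With slide as a fixed block the changes of miR-15b-5p were -0.97 in females and -0.87 in males. For both sexes these values rest on that 1 female array, which alone links the younger and older slides. With normexp background correction the female change was -0.42 (adjusted p = 0.0773) and no longer called. Under that setting the median of all expressed miRNAs moved by -0.43 in females. Without the 2-week animals, miR-15b-5p still differed with age in females (adjusted p = 6.03e-05) and males (adjusted p = 0.00036), though by less than 1.5-fold between any pair of ages.

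miR-16-5p, which is processed from the same primary transcript as miR-15b where the cluster is the source, moved little. In 2-week females its normalized intensity was 17.1, 23.0, 23.3 and 26.0, in 8-week females 17.7, 19.9, 21.8 and 21.9, and in 21-week females 16.5, 17.8, 18.1 and 18.9. In 2-week males it was 19.2, 21.0, 21.5, 23.8 and 26.4, in 8-week males 20.8, 21.0, 22.6 and 22.9, and in 21-week males 18.5, 19.3, 21.1, 21.3 and 23.1. These groups overlapped within each sex.

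The difference between 21 and 2 weeks in miR-16-5p was -0.31 in females (95% confidence interval -0.49 to -0.13, adjusted p = 0.00416), a 1.24-fold change under the fold threshold, and -0.11 in males (-0.28 to 0.05, adjusted p = 0.254). Between 8 and 2 weeks it was -0.12 in females (-0.31 to 0.06) and -0.03 in males (-0.20 to 0.15). Its 16 group means ran from 17.8 (21-week females) to 22.4 (2-week males). The scaling mattered here: with quantile normalization the female difference between 21 and 2 weeks was -0.73 (adjusted p = 3.06e-08) and called, and with normexp background correction it was 0.20 (adjusted p = 0.487), of the opposite sign. Under normexp the median of all expressed miRNAs moved by -0.43 between these ages in females.

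miR-195-5p, of the chromosome 10 cluster, went the other way from miR-15b-5p in males. In 2-week males its normalized intensity was 1.67, 1.72, 1.89, 2.10 and 2.12, in 8-week males 3.53, 3.83, 3.88 and 4.10, and in 21-week males 3.32, 3.43, 3.90, 3.93 and 4.06. In 2-week females it was 2.25, 2.73, 2.82 and 3.24, in 8-week females 3.15, 3.51, 3.63 and 3.67, and in 21-week females 2.96, 3.33, 3.41 and 3.43. All 2-week males lay below all other males, while the 2-week females overlapped with the older females.

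In males miR-195-5p was higher by 1.02 on the log2 scale at 8 than at 2 weeks (SE 0.09, 2.02-fold, adjusted p = 2.72e-15) and by 0.97 at 21 than at 2 weeks (SE 0.08, 1.96-fold, adjusted p = 7.90e-16). In females the differences were 0.35 (SE 0.09, 1.27-fold, adjusted p = 0.00216) and 0.26 (SE 0.09, adjusted p = 0.0209), both under the fold threshold. With slide as a fixed block, which again rests on the 1 linking array, the difference between 21 and 2 weeks was 0.78 in males and 0.03 in females.

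miR-497-5p, encoded next to miR-195, was also lowest at 2 weeks in males. In 2-week males it was 1.44, 1.56, 1.64, 1.69 and 1.71, in 8-week males 2.82, 2.87, 2.97 and 3.11, and in 21-week males 2.36, 2.39, 2.49, 2.58 and 2.63. In 2-week females it was 2.00, 2.23, 2.33 and 2.62, in 8-week females 2.37, 2.42, 2.62 and 2.68, and in 21-week females 1.98, 2.11, 2.17 and 2.38. The 2-week males again lay below all other males, and the female groups overlapped.

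In males miR-497-5p was higher by 0.87 at 8 than at 2 weeks (SE 0.08, 1.83-fold, adjusted p = 3.53e-14) and by 0.63 at 21 than at 2 weeks (SE 0.08, 1.55-fold, adjusted p = 1.68e-10). In females the differences were 0.14 (95% confidence interval -0.03 to 0.31, adjusted p = 0.236) and -0.08 (-0.26 to 0.09, adjusted p = 0.519), and the latter was 0.31 with quantile normalization (adjusted p = 0.00164). The male difference between 21 and 2 weeks fell short of 1.5-fold when scaled to miRNAs detected on all arrays (0.54), with normexp background correction (0.52) and with slide as a fixed block (0.53). Of the 5 members, 2 were called higher in males at 8 and again at 21 weeks, against 15.1% and 22.5% of all expressed miRNAs, and none in females, against 8.68% and 14.1%. Called over parts of the age range, the members were miR-15b-5p in females (1 of 5, against 21.2%) and miR-15b-5p, miR-195-5p and miR-497-5p in males (3 of 5, against 30.2%) within 2 to 8 weeks. From 5 to 104 weeks they were none in females, against 20.3%, and miR-195-5p and miR-497-5p in males (2 of 5, against 28.9%). Within 15 to 104 weeks there was none in either sex, against 7.4% in females and 16.7% in males. Without the fold threshold, 3 of 5 members were called with age in each sex, against 49.8% of expressed miRNAs for females and 58.8% for males. At that criterion the females had 2 called at 8 against 2 weeks (31.8% of expressed miRNAs) and 3 at 21 against 2 weeks (39.9%).

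**Figure D2:**
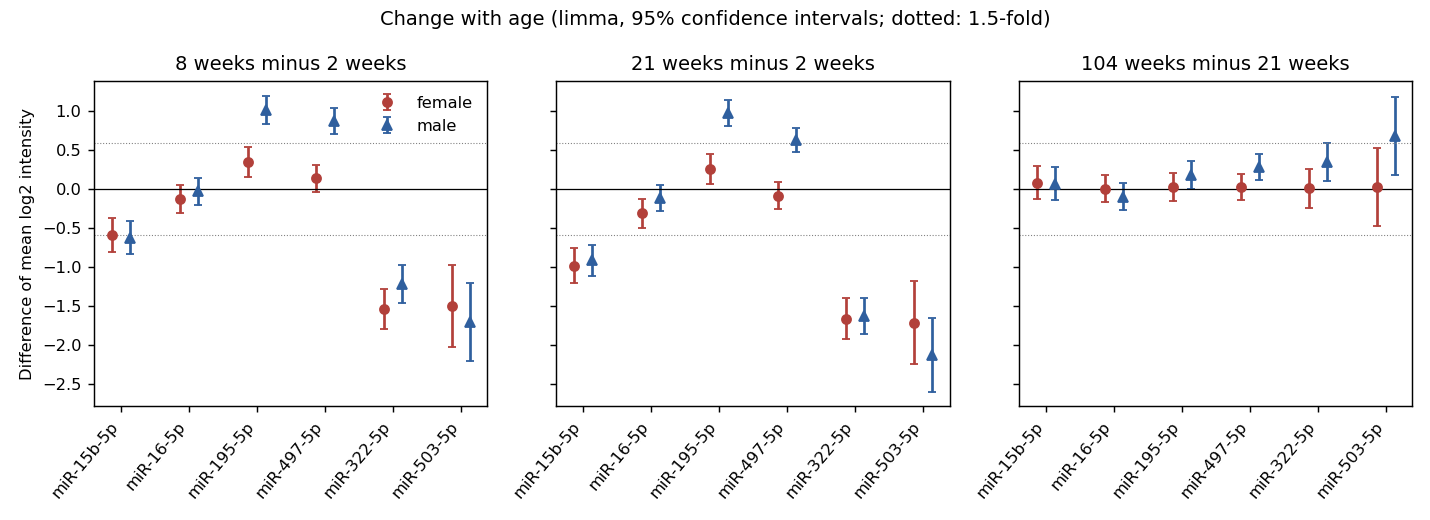
Difference of mean log2 normalized intensity between ages (points) with 95% confidence intervals (bars) from limma for the 4 measured members and the seed relatives miR-322-5p and miR-503-5p, in females (circles) and males (triangles), with dotted lines at 1.5-fold. miR-15b-5p lies below 0 at 8 and 21 against 2 weeks in both sexes, miR-195-5p and miR-497-5p lie above 1.5-fold in males, and the intervals of all 4 members stay within 1.5-fold at 104 against 21 weeks.

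The place of these changes among all expressed miRNAs differed by member. At 21 against 2 weeks in males, miR-195-5p took place 46 and miR-497-5p place 69 from the highest of 311, and in females 82 and 184. The median change of the 4 measured members was -0.20 in females and 0.26 in males, beside medians of -0.01 and 0.10 for the 166 miRNAs detected on all arrays. In size, miR-15b-5p in both sexes and miR-195-5p in males changed by more than the median absolute change of those 166. That median was 0.46 in females and 0.62 in males. miR-497-5p in males, at 0.63, lay near it, and miR-16-5p changed by less.

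**Figure D3:**
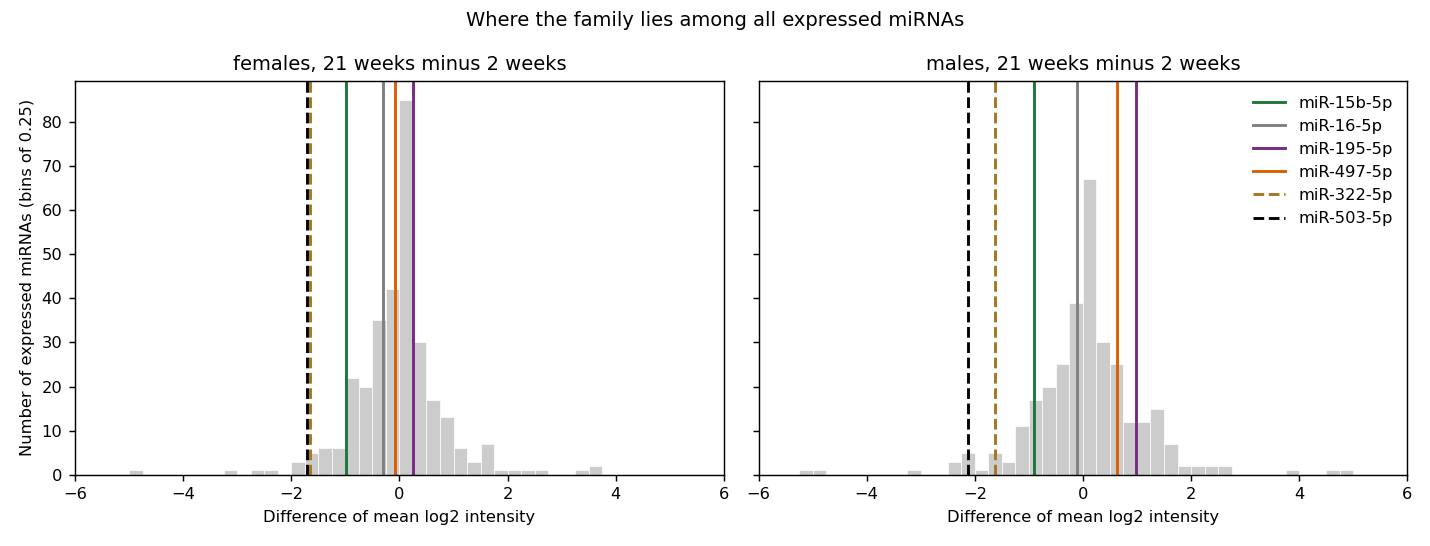
Number of the 311 expressed miRNAs (bars, bins of 0.25) by their difference of mean log2 intensity between 21 and 2 weeks, in females (left) and males (right), with vertical lines at the 4 measured members (solid) and at miR-322-5p and miR-503-5p (dashed). The members spread from -0.98 to 0.26 in females and from -0.91 to 0.97 in males, and both seed relatives lie lower still.

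A ratio of miRNAs on the same array does not depend on how that array is scaled, so it was used to ask whether members changed unequally. Of 24 exact permutation tests (4 ratios, 3 pairs of ages and both sexes), 15 had an adjusted p under 0.05, all of them at 8 or 21 against 2 weeks. The adjusted p was 0.0457 for each of these, since many tests lay at the smallest p that 4 or 5 animals a group allow, 0.0286 for 4 against 4, 0.0159 for 4 against 5 and 0.00794 for 5 against 5. Only changes in a ratio are read here, because the levels of different probes cannot be set against each other.

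miR-195-5p over miR-15b-5p rose the most in males. Its mean log2 ratio in females was -1.34 (SD 0.0972, n = 4) for the 2-week group, -0.405 (SD 0.108, n = 4) for the 8-week group and -0.0992 (SD 0.0460, n = 4) for the 21-week group. In males the corresponding means were -2.10 (SD 0.143, n = 5), -0.464 (SD 0.142, n = 4) and -0.216 (SD 0.145, n = 5). No 2-week animal overlapped with an older one of its sex, and the ratio changed 2.36-fold in females and 3.70-fold in males by 21 weeks (exact permutation test, adjusted p = 0.0457 for each).

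Members encoded in the same cluster also moved apart in level, though whether a further gene copy adds to miR-16-5p was not analysed. miR-16-5p over miR-15b-5p rose by 0.67 in females and by 0.80 in males between 2 and 21 weeks, with no overlap. miR-497-5p over miR-195-5p fell by 0.34 in both sexes over the same ages, also with no overlap, and at 8 weeks it was lower by 0.21 in females (adjusted p = 0.0457, exact test) and by 0.14 in males (adjusted p = 0.0714, exact test), where the groups overlapped. Between 21 and 104 weeks no ratio passed the test, the smallest adjusted p being 0.106. The count of 15 rests on the size of the groups: without any single female of 2, 8 or 21 weeks, or any single 8-week male, 4 tests passed. None passed with quantile normalization, where the smallest adjusted p was 0.0686 in the same exact test and 21 of 24 changes had the same direction. Under it the change of miR-195-5p over miR-15b-5p at 21 weeks was larger, 1.46 in females and 2.15 in males. The changes within a cluster were smaller: miR-497-5p over miR-195-5p was -0.14 in females and -0.17 in males, and miR-16-5p over miR-15b-5p 0.29 and 0.73.

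**Figure D4:**
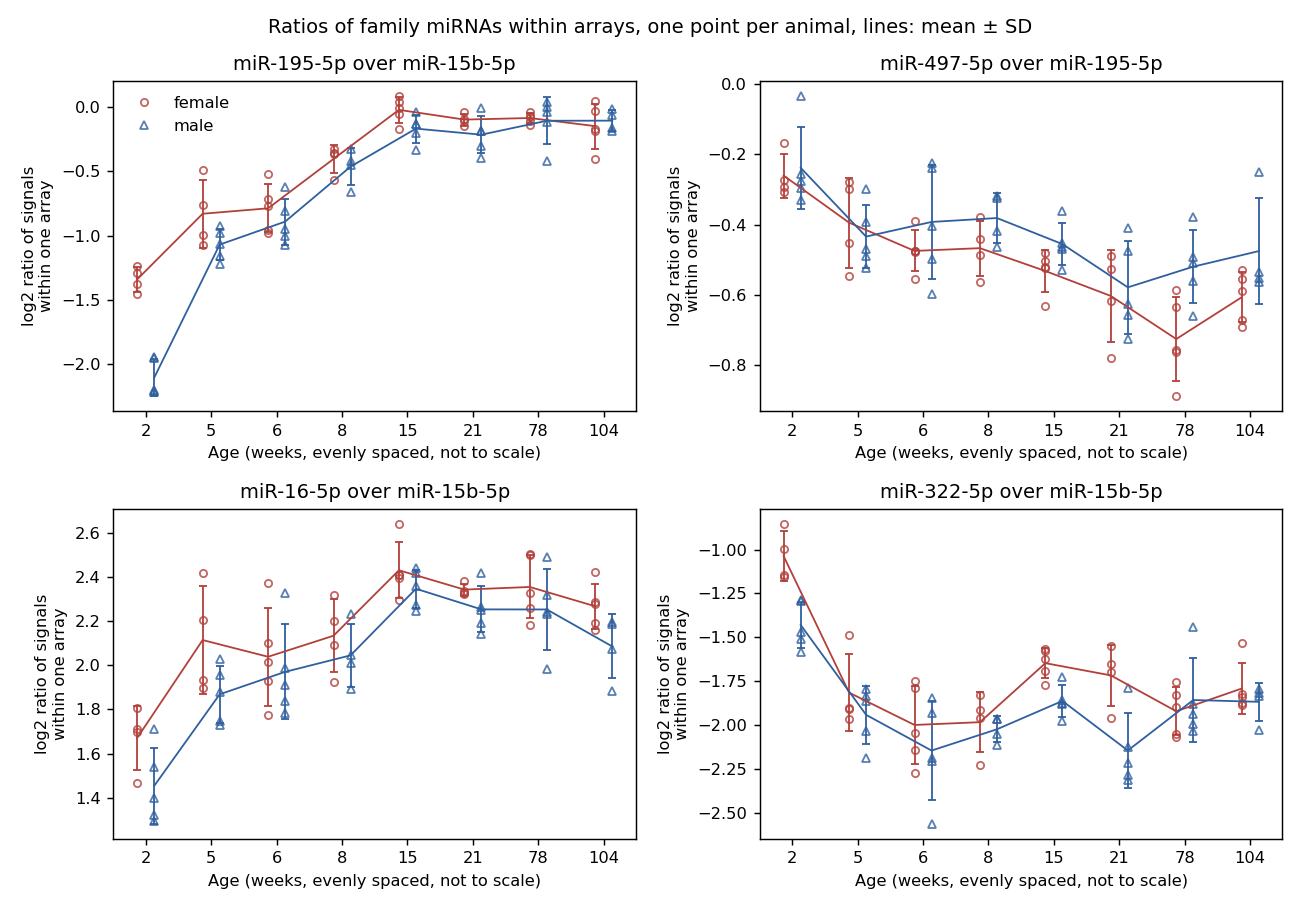
Within-array log2 ratio of signals against age in weeks (evenly spaced) for miR-195-5p over miR-15b-5p, miR-497-5p over miR-195-5p, miR-16-5p over miR-15b-5p and miR-322-5p over miR-15b-5p, 1 open symbol per animal, lines through group means and bars of 1 SD, females as circles and males as triangles. The ratio of miR-195-5p to miR-15b-5p climbs from -1.34 (females) and -2.10 (males) at 2 weeks to -0.0992 and -0.216 at 21 weeks, then stays level.

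Each member was measured by 2 probes, and for the changes called above both had the same direction. The brighter probe supplied between 69.6% and 77.6% of a member's signal. For miR-15b-5p the brighter and the dimmer probe differed between 21 and 2 weeks by -1.01 and -0.92 in females and by -0.89 and -0.95 in males, with no overlap of animals. For miR-195-5p in males they differed by 0.96 and 1.0, and for miR-497-5p in males by 0.66 and 0.55, the latter under 1.5-fold, likewise with no overlap. The probes disagreed on some smaller differences. Between the sexes, miR-16-5p differed by -0.0071 and 0.23 at 78 weeks and by 0.078 and 0.19 at 104 weeks, where the animals overlapped on the brighter probe and not on the dimmer. For miR-195-5p in females, 8 and 2 weeks overlapped on the brighter probe and not on the dimmer (0.35 on each). The 2 probes of a member are assigned to the same miRNA, and how much signal from similar miRNAs either held was not measured. Within groups, the deviations of miR-16-5p and miR-195-5p correlated at 0.81 over the 74 arrays, those of miR-195-5p and miR-497-5p at 0.67 and those of miR-15b-5p and miR-16-5p at 0.42. These arrays share their scaling, and whether probes for miR-16-5p and miR-195-5p bound each other's miRNA was not tested.

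For the chromosome 10 pair the sexes differed most at the ends of the age range, in opposite directions. At 2 weeks each of the 5 males lay below each of the 4 females in miR-195-5p, by 0.53 (SE 0.09, 1.45-fold, adjusted p = 8.78e-06), and miR-497-5p by 0.51 (SE 0.08, 1.42-fold, adjusted p = 4.62e-06). At 104 weeks each of the 4 males exceeded each of the 5 females in miR-497-5p, by 0.46 (SE 0.08, 1.38-fold, adjusted p = 1.35e-05), and miR-195-5p by 0.33 (SE 0.09, 1.26-fold, adjusted p = 0.00355). At 78 weeks miR-497-5p was higher in males by 0.34 (SE 0.08, 1.26-fold, adjusted p = 8.79e-04), again with no overlap. These differences passed the adjusted p and not the fold threshold, so that no member was called between the sexes at any age, where 17.4% of expressed miRNAs were called at 1 age or more. Without the fold threshold 3 of 5 members were called at 1 age or more, against 42.8% of expressed miRNAs, and the shares of expressed miRNAs for 2, 78 and 104 weeks were 10.9%, 20.3% and 20.3%.

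The 104-week males spread more widely than the 104-week females. miR-497-5p was 2.60, 2.78, 3.23 and 3.61 in these males and 2.03, 2.20, 2.20, 2.22 and 2.36 in the females. miR-195-5p was 3.84, 3.84, 4.07 and 5.23 in the males and 3.18, 3.27, 3.30, 3.47 and 3.54 in the females. For miR-195-5p the wider spread rested on the male of replicate 2 (5.23). At 78 weeks the males did not spread more widely in miR-497-5p (2.48 to 2.87, against 1.85 to 2.35 in females). miR-195-5p ran from 3.53 to 4.53 in 78-week males and from 3.15 to 3.99 in 78-week females. At 5, 6 and 15 weeks the sexes overlapped for both miRNAs and the differences ran from -0.01 to 0.11, whereas at 8 weeks miR-497-5p was higher in all males, by 0.22 (adjusted p = 0.156). At 21 weeks the sexes also overlapped, with higher means in males. These means were 3.73 in males and 3.28 in females for miR-195-5p, and 2.49 and 2.16 for miR-497-5p.

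The 2-week difference rose above 1.5-fold and was called for both miRNAs when arrays were scaled to the miRNAs detected on all arrays (-0.70 for miR-195-5p and -0.67 for miR-497-5p), a setting under which the median of all expressed miRNAs itself moved by -0.12. It was -0.15 (adjusted p = 0.390) and -0.18 (adjusted p = 0.174) with normexp background correction. The median of all expressed miRNAs moved by -0.33 under normexp, further than these 2 values. Without the 2-week female of replicate 3 it was -0.63 for miR-195-5p and called. With slide as a fixed block it was -0.55 and -0.51. At 104 weeks the miR-497-5p difference passed 1.5-fold when scaled to miRNAs detected on all arrays (0.65) or to all miRNAs of the array (0.61).

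**Figure D5:**
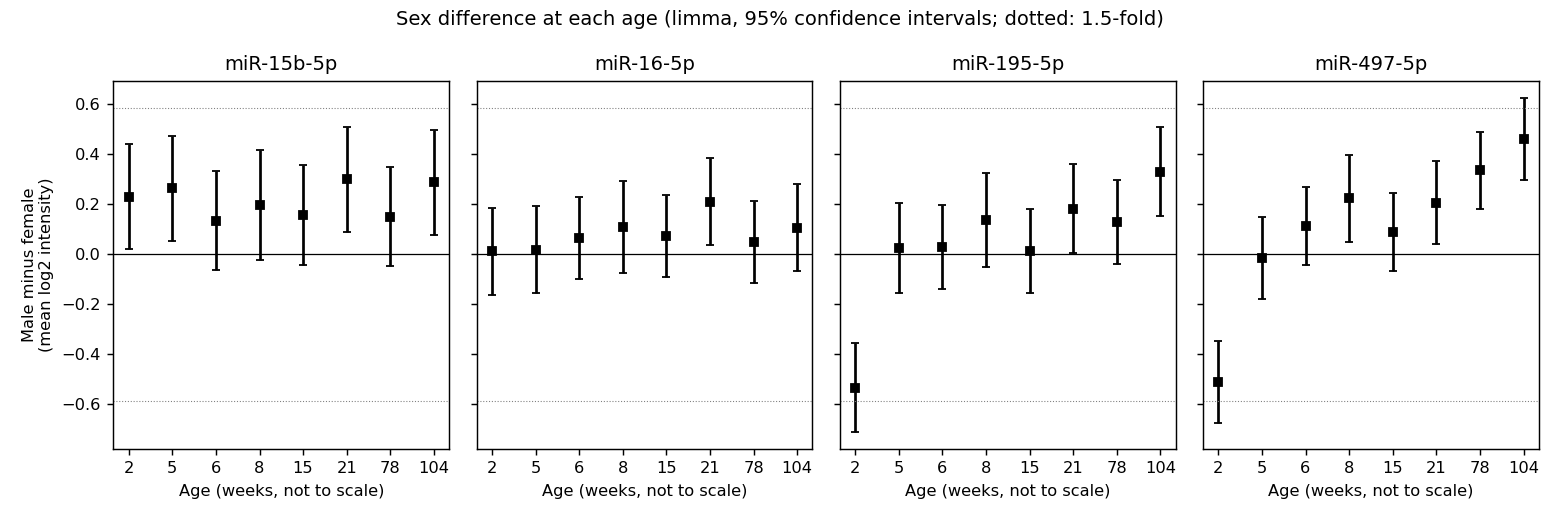
Male minus female difference of mean log2 normalized intensity (squares) with 95% confidence intervals (bars) from limma at each age in weeks, for the 4 measured members, with dotted lines at 1.5-fold. miR-195-5p and miR-497-5p lie at -0.53 and -0.51 at 2 weeks and at 0.33 and 0.46 at 104 weeks.

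miR-15b-5p and miR-16-5p differed less between the sexes. miR-15b-5p had a higher mean in males at all 8 ages, by 0.13 to 0.30, and passed the adjusted p at 104 weeks alone (0.29, adjusted p = 0.0409). The sexes overlapped for it at all ages but 8 weeks, where all 4 males lay above all 4 females (0.20, adjusted p = 0.531). For miR-16-5p the differences were 0.01 to 0.21, and the smallest adjusted p was 0.115, at 21 weeks.

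Change with age differed between the sexes for the chromosome 10 pair. The age by sex interaction passed an adjusted p of 0.05 for miR-195-5p (adjusted p = 1.08e-05) and miR-497-5p (adjusted p = 5.04e-08), 2 of 5 members against 27.7% of expressed miRNAs. It did not for miR-15b-5p (adjusted p = 0.973) or miR-16-5p (adjusted p = 0.931). Within the ages of 2 to 8 weeks, which share slides, the interaction again passed for miR-195-5p (adjusted p = 0.00368) and miR-497-5p (adjusted p = 8.55e-04), against 5.47% of expressed miRNAs. Without the 2-week animals it passed for miR-497-5p (adjusted p = 0.0142) and not for miR-195-5p (adjusted p = 0.252), against 23.8% of expressed miRNAs. Within 15 to 104 weeks the adjusted p was 0.0369 and 0.188, against 19% passing. With normexp background correction it passed for neither (adjusted p = 0.0654 for miR-497-5p and 0.706 for miR-195-5p).

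In old age the family changed little. Between 21 and 104 weeks no member was called in either sex, where 2.89% of expressed miRNAs were called in females and 14.8% in males. In females the differences of the 4 measured members were 0.01 to 0.08, and the confidence intervals reached from -0.17 to 0.29. In males miR-497-5p was higher at 104 weeks by 0.28 (SE 0.08, 1.22-fold, adjusted p = 0.00506) and miR-195-5p by 0.18 (SE 0.09, adjusted p = 0.127). Scaled to the miRNAs detected on all arrays, the male difference of miR-497-5p was 0.60 and called. Without the fold threshold miR-497-5p was the 1 member called in males, against 33.4% of expressed miRNAs.

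Ordered by mean level over the 16 groups of age and sex, neighbouring groups overlapped in their animals nearly throughout. For miR-15b-5p the 2-week males and females stood at the top and 21-week females at the bottom, and for miR-16-5p the order was the same at both ends. For miR-195-5p and miR-497-5p the 2-week males stood at the bottom and the 104-week males at the top. Of 15 steps between neighbours, none separated the animals for miR-15b-5p or miR-16-5p, and 1 did for each of miR-195-5p and miR-497-5p: the step from 2-week males to the next group.

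Over the 16 group means, miR-15b-5p and miR-16-5p correlated at 0.88 and miR-195-5p and miR-497-5p at 0.90, whereas miR-15b-5p and miR-195-5p correlated at -0.72. The groups share slides and scaling, and these values are descriptive. Among the other miRNAs detected on at least 90% of arrays, the courses most like miR-15b-5p were those of miR-93-5p (r = 0.94), miR-542-5p (0.94) and miR-363-3p (0.94). miR-93-5p and miR-363-3p belong to the paralogous clusters of the growth-promoting miR-17 family, and miR-542 is encoded near miR-322 and miR-503. Those most like miR-16-5p were miR-181b-5p (0.87), miR-181a-5p (0.83) and miR-484 (0.82).

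For miR-195-5p the most alike were miR-146a-5p (0.90), which is induced by inflammatory signalling, miR-101a-3p (0.88) and miR-29c-3p (0.86), a repressor of collagens. For miR-497-5p they were miR-142-3p (0.73), miR-146a-5p (0.73) and miR-223-3p (0.71), of which miR-142-3p marks blood cells and miR-223-3p myeloid cells.

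Some lists of cell type miRNAs also changed where the chromosome 10 pair did. The leukocyte list held miR-150-5p, miR-223-3p and both arms of miR-142. Its summed normalized intensity was 1.69 to 1.86 in 2-week males, 2.59 to 3.35 in 8-week males and 5.56 to 7.67 in 104-week males. In females it was 2.00 to 2.12 at 2 weeks, 2.68 to 3.31 at 8 weeks and 3.32 to 3.57 at 104 weeks. Between 2 and 8 weeks 2 of 4 rose in each sex, against 8.68% of expressed miRNAs called higher in females and 15.1% in males. In females neither miR-195-5p (0.35) nor miR-497-5p (0.14) was called at these ages. Between 21 and 104 weeks 4 of 4 rose in males, against 6.11% of expressed miRNAs called higher, and 1 of 4 in females, against 0.965%. At 104 weeks 4 of 4 were higher in males, against 3.22%. miR-142-5p was detected on 10 arrays in all. Of 5 smooth muscle and mesenchyme miRNAs, 1 was called higher in males at 104 weeks, against 3.22%, with a median difference of 0.37 for the list. Of 3 erythroid miRNAs, 2 were called higher in males at 78 weeks, where 11 of 311 expressed miRNAs were. In that list miR-144-3p and miR-144-5p were detected on only 5 and 14 arrays.

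The kidney tubule list went the other way in old males. Its summed intensity was 42.5 to 51.2 in 104-week males and 59.7 to 73.3 in 104-week females, with no overlap. Between 21 and 104 weeks 3 of 7 fell in males, against 8.68% of expressed miRNAs called lower, and none in females, and at 104 weeks 1 of 7 was lower in males, against 2.89%. At 2 weeks the summed intensity of the tubule list was also lower in males, at 32.9 to 37.9 against 43.8 to 47.5 in females, with no overlap. None of its 7 was called between the sexes at that age, where 10 of 311 expressed miRNAs were called lower in males. The part of leukocytes, of tubule cells and of the other listed cell types in the differences of miR-195-5p and miR-497-5p was not tested.

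The liver miRNA miR-122-5p was higher in 2-week males than in 2-week females, though not raised in them alone. It lay between 0.397 and 23.6 in 2-week males (median 0.519) and between 0.0774 and 0.107 in 2-week females, a difference of 3.50 on the log2 scale (adjusted p = 0.0162). In 104-week females it was 0.293 to 0.672, and it reached 3.91 in 5-week males and 5.82 in 6-week males. The part of miR-122-5p in the difference between the sexes was not tested. Leaving out single arrays does not bear on it, since all 2-week males lay above all 2-week females. With any single array left out, the interactions of miR-195-5p and miR-497-5p still passed.

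Seed relatives on the X chromosome fell more steeply than miR-15b-5p. miR-322-5p was 2.79, 3.56, 3.56 and 3.68 in 2-week females and 0.931, 1.05, 1.09 and 1.23 in 21-week females. In males it ran from 2.56 to 3.35 at 2 weeks and from 0.898 to 1.03 at 21 weeks, again with no overlap. It was lower by 1.66 in females (SE 0.13, 3.16-fold, adjusted p = 3.08e-17) and by 1.63 in males (SE 0.12, 3.09-fold, adjusted p = 3.73e-19), and most of this was present at 8 weeks (-1.53 and -1.21).

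miR-503-5p, detected on 72 arrays, was lower at 21 than at 2 weeks by 1.71 in females (SE 0.26, adjusted p = 1.29e-07) and by 2.12 in males (SE 0.24, adjusted p = 7.49e-12). The undetected arrays, a 6-week and a 15-week male, were at the floor. They are of neither age compared, but enter the spread in the fit of all groups. In males miR-503-5p was higher at 104 than at 21 weeks by 0.68 (SE 0.25, 1.61-fold, adjusted p = 0.0286). The ratio of miR-322-5p to miR-15b-5p fell by 0.95 in females and by 0.59 in males between 2 and 8 weeks, with no overlap of animals (exact permutation test, adjusted p = 0.0457 for each). With normexp background correction these changes were -0.39 and -0.40, and with quantile normalization -0.96 and -0.30. The 5 miRNAs with the same seed thus split during growth into 2 that fell (miR-15b-5p and miR-322-5p), 1 that was not called, and 2 that rose in males.

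Other miRNAs that act on proliferation were taken from lists. Of 11 miRNAs of the miR-17 clusters, which promote growth, 9 were called lower at 21 than at 2 weeks in each sex and none higher, with a median change of -0.81 in females and -0.85 in males and the largest in miR-363-3p (-3.05 and -3.14) and miR-18a-5p (-1.96 and -2.09). Of 11 other miRNAs known to slow the cell cycle, from the let-7 and miR-34 families, 1 was called higher and 1 lower in each sex, with medians of 0.02 and 0.01. The one higher was miR-34a-5p (1.56 and 1.64), a target of p53, and the one lower was its relative miR-34c-5p (-1.0 and -1.34). Medians of all expressed miRNAs at these ages were 0, and the shares called are given above.

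Lists that stand for cell types changed over the same ages. Of 7 kidney tubule miRNAs, 3 were called higher at 21 than at 2 weeks in females and 4 in males, led by miR-192-5p (0.99 and 1.55) and miR-194-5p (0.82 and 1.51), and their summed intensity at 2 weeks was 32.9 to 37.9 in males and 43.8 to 47.5 in females. Of 5 smooth muscle and mesenchyme miRNAs, 3 were called lower in each sex, led by miR-214-3p (-1.35 and -1.55) and miR-199a-3p (-0.88 and -1.14). Neither endothelial miRNA, miR-126a-3p (-0.51 and -0.32) or miR-126a-5p (0.25 and 0.20), was called. Of 3 erythroid miRNAs 1 was called higher in each sex, miR-451-5p (0.60 and 0.67), while miR-144-3p was detected on 5 arrays only. Of 2 expressed striated muscle miRNAs, both were called higher in males and none in females, miR-206-3p (0 and 1.09), which was detected on 17 arrays and otherwise at the floor, and miR-133b-3p (0.04 and 0.65). The part of these cell types in the family's changes was not tested.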

How the data were processed

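Total RNA of 74 whole kidneys, 1 per array, had been hybridised to single-colour Agilent rat miRNA arrays. The deposited intensity values used here are the scanner's total gene signals: per the file headers, Agilent Feature Extraction had subtracted background and summed the probes of each of 677 miRNAs, 20 spots each, writing 0.1 where a miRNA was not detected. No spot was saturated. No between-array normalization had been applied. In the authors' deposited table of 311 expressed miRNAs, the signal is this intensity divided by the array's 75th percentile. Each of its 74 columns equalled 1 scanner file, but 69 equalled that of another sample than the one named, in the order of sex, age and replicate, so samples were taken from the scanner files and the table served as an alternative. All 74 columns were assigned to samples by name.

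Here, signals of the 311 expressed miRNAs were divided by the 75th percentile over them, raised to a floor of 0.0171 (the lowest detected signal, 1.39, over the smallest percentile) and put on the log2 scale. The floor touches none of the 4 measured members. Age was tested in each sex by an F test, and differences between ages, between sexes and their interaction in a fit of all 16 groups, with limma 3.58.1 in R 4.3.3 and Benjamini-Hochberg adjustment over 311 miRNAs. An age call needed an adjusted F-test p under 0.05 and a pair of ages at an unadjusted p under 0.05 and 1.5-fold; the interaction needed the adjusted p alone. Ratios were tested by exact two-sided permutation (scipy 1.17.1). Code was tested on simulated data. The number of arrays limits precision.

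The members, lists and tests were chosen with earlier results of these data known. Named miRNAs were the members, the 3 most like each over the 16 group means, the seed relatives, and up to 2 of each list with the largest change at 21 against 2 weeks, plus markers at or near 0 or moving with a result. Alternatives covered scaling, background correction, floors and filters, slide and replicate blocks, the methods' t-test and ANOVA, subsets of ages, single probes and leaving out each array; the interaction within parts of the age range, the age test without 2-week animals and single probes were added after the data were seen. Replicate numbers did not pair the arrays: deviations of same-numbered males and females of an age correlated at -0.05 on average over 28 pairs, against 0.01 for 143 other pairs.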

Additional observations from a re-analysis of the deposited data

Results flagged for a closer look

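The change with age differed between the sexes for miR-195-5p (interaction adjusted p = 1.08e-05) and miR-497-5p (interaction adjusted p = 5.04e-08), as described above.

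Within single groups, 2 of 64 sets of 4 or 5 animals held an animal far from the rest, where chance flags about 1 set in 20. The lowest miR-15b-5p among 21-week males, replicate 2, was 3.46 beside 4.37 to 4.81 in the other 4. The highest miR-16-5p among 78-week males, replicate 5, was 21.3 beside 19.0 to 19.6.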

How the results depend on the processing

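The number of members called with age in females was 1 and became 2 with quantile normalization, 3 with no fold threshold and 0 with normexp background correction, within 15 to 104 weeks or without the 2-week animals. The number called with age in males was 3 and became 0 within 15 to 104 weeks and 2 without the 2-week animals. The number called for an interaction was 2 and became 0 with normexp and 1 without the 2-week animals or within 15 to 104 weeks. At 8 against 2 weeks in females it was 1 and became 0 with the 75th percentile over the whole array, normexp and slide as a fixed or random block, and 2 with no fold threshold. At 21 against 2 weeks in females it was 1 and became 2 with quantile normalization, 0 with normexp and 3 with no fold threshold. At 8 against 2 weeks in males it was 3 and became 2 with the 75th percentile over the whole array and with normexp. At 21 against 2 weeks in males it was 3. It became 2 there with the 75th percentile over miRNAs detected on all arrays, with normexp and with slide as a fixed block. At 104 against 21 weeks in males it was 0 and became 1 with the 75th percentile over miRNAs detected on all arrays and with no fold threshold. Between the sexes it was 0 and became 2 and 1 with those percentiles over miRNAs detected on all arrays and over all miRNAs, 1 with normexp (miR-15b-5p at 2 weeks) and 3 with no fold threshold. The unequal changes numbered 15 of 24 and became 0 with quantile normalization, and 4 with normexp, where all 24 kept their direction. Normexp lowered the calls over all 311 miRNAs too, from 114 to 29 with age in females, from 86 to 15 for the interaction, from 66 to 10 and from 87 to 45 at 8 and 21 against 2 weeks in females, and from 54 to 9 between the sexes. With quantile normalization these were 119, 75, 66, 87 and 54. In males at 8 and 21 against 2 weeks, the calls over all 311 miRNAs went from 93 to 41 and from 123 to 51 with normexp. The whole-array percentile gave 96 at 8 weeks. At 21 weeks the percentile over miRNAs detected on all arrays gave 115 and the fixed slide block 105. Why normexp and quantile normalization differed was not tested.

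Leaving out each array in turn, the counts ran from 0 to 1 at 8 against 2 weeks in females, from 2 to 3 at 8 against 2 weeks in males, from 0 to 1 between the sexes and from 4 to 16 for the unequal changes. The 4 came without any single female of 2, 8 or 21 weeks or any single 8-week male, since a smaller group raises the smallest p the exact test allows, and without any other array 15 or 16 passed. The member counts stayed at 1 and 3 with age in females and males, at 2 for the interaction, at 1 and 3 at 21 against 2 weeks and at 0 at 104 against 21 weeks.

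With normexp, miR-16-5p at 21 minus 2 weeks in females was 0.20, and with quantile normalization miR-497-5p there was 0.31, both reversed. For the same ages in females, the median of all expressed miRNAs moved by -0.43 with normexp. The deposited table under its own column names, which mixes ages and sexes, gave 3 members with age in females, 1 at 104 against 21 weeks in females, and 0 at 8 and at 21 against 2 weeks in each sex and for the unequal changes. Of all 311 miRNAs, 127 were called there with age in females and 70 at 104 against 21 weeks in females. At 8 and 21 against 2 weeks 5 and 3 were called in females, and 21 and 5 in males. There the ratio of miR-497-5p to miR-195-5p in females was 0.25 at 8 and 0.28 at 21 minus 2 weeks, that of miR-16-5p to miR-15b-5p at 8 minus 2 weeks -0.047 in females and -0.0085 in males, and that of miR-322-5p to miR-15b-5p in females 0.11 at 8 and 0.27 at 21 weeks. miR-15b-5p at 8 minus 2 weeks was 0.081 in females and 0.12 in males, and male minus female -0.53 at 5 and -0.47 at 104 weeks. miR-195-5p in females was -0.10 at 21 minus 2 and -0.31 at 104 minus 21 weeks. miR-497-5p in males was -0.039 at 104 minus 21 weeks, and male minus female 0.0022 at 2, 0.33 at 5 and -0.11 at 104 weeks.

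With the replicate number as a block the counts were unchanged at 1 and 3 with age and 2 for the interaction. Values with slide as a fixed block between 21 and 2 weeks rest on the 1 array of a 15-week female that links the slides. The males' age test with slide as a fixed block could not be fitted, since no male array links the slides of younger and older ages. Over 92 results for single members and ratios, 1260 of 1368 values under an alternative kept their call, 65 lost it, 25 gained it and 18 changed sign with an adjusted p under 0.05 on at least 1 side. Values that were not called on either side are counted as kept whatever their sign.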
